A study of Mus musculus with 4 samples.

Results

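The genes described here are 10 markers of natural killer (NK) cells and other cytotoxic lymphocytes, chosen by gene symbol from the 17823 genes that have values in all 4 blood libraries of the series. They are Gzma, Gzmb, Prf1 and Nkg7 of the cytotoxic granules, the surface receptors Ncr1, Klrb1c, Klrd1 and Klrk1, and the T-box transcription factors Eomes and Tbx21. Each symbol matched 1 listed gene, so all 10 members have a value in every library. The libraries come from the blood of C57BL/6 mice that the sample labels call adult and the study calls aging. Mice of the Nar group were given naringenin (Nar), a flavonoid, through the tail vein over 30 days, and mice of the Ctrl group were given PBS over the same 30 days. Each group has 2 libraries, numbered 1 and 3, and no genetic change is given for either group. Blood was not sorted, so every value is an average over all its cells, and fewer cells of a type cannot be told apart from less RNA per cell. The sources do not say how many mice stand behind a library, so the tests below measure only the spread between these libraries.

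NK cells and cytotoxic T cells kill by releasing granules onto a target cell. Perforin (Prf1) opens the membrane of the target, and the serine proteases granzyme A (Gzma) and granzyme B (Gzmb) enter and cleave proteins inside it. Nkg7 is a membrane protein of the same granules. The receptors decide when this happens: NKp46 (Ncr1) and NKG2D (Klrk1) activate the cell, NK1.1 (Klrb1c) is the antigen by which NK cells of C57BL/6 mice are usually recognized, and CD94 (Klrd1) pairs with NKG2 proteins to read MHC class I. Eomes and T-bet (Tbx21) drive NK cell maturation. Granule genes, Klrd1, Klrk1 and the T-box factors are also used by activated or memory CD8 T cells, while Ncr1 and Klrb1c are the members most restricted to NK and related innate cells.

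Each member is protein coding in RefSeq on GRCm38.p6. Klrb1c, Klrd1 and Klrk1 lie together in the NK gene complex of chromosome 6, at chr6:128778485-128788641, chr6:129588092-129598775 and chr6:129610323-129623903, with 11.5 kb between Klrd1 and Klrk1. Ncr1 is at chr7:4337715-4345184 and Nkg7 at chr7:43437138-43438246. The granzymes are apart from each other, Gzma at chr13:113093824-113100981 and Gzmb at chr14:56258836-56262334, as are Prf1 at chr10:61297751-61304684, Eomes at chr9:118478186-118486132 and Tbx21 at chr11:97098007-97115331.

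The promoter windows of RefSeq (GRCm38.p6, 250 bases before to 50 after the gene start) were searched on both strands for the core of RUNX sites, TGTGGT, and for the T-box site AGGTGTGA, since RUNX and T-box factors are known to act on cytotoxic genes. Of the 9 members with a window, 7 hold the RUNX core (Gzma, Gzmb, Prf1, Nkg7, Ncr1, Klrb1c and Klrk1), against 16.8% of all 32851 windows. The T-box site was found in 1 of the 9, Nkg7, against 1.28% of all windows. A looser T-box spelling, GGTGTNA, also occurred in 1 of the 9 and in 10.2% of all windows, and the short form ACACCT in 3 of the 9 and in 13.7%, and both of these overlap with the longer site where it occurs. These matches describe letters only, the spellings were chosen with the expression values known, and several spellings were looked at. The windows of the granzyme genes, of Nkg7 and of Ncr1 are shown because the comparison of granule genes with receptors turns on these members. They are at chr13:113100932-113101231 on the minus strand for Gzma, chr14:56262285-56262584 on the minus strand for Gzmb, chr7:43436888-43437187 on the plus strand for Nkg7 and chr7:4337465-4337764 on the plus strand for Ncr1. Capitals mark the RUNX core on either strand and, in Nkg7, also the T-box site, which begins 14 bases before the gene start.
Gzma: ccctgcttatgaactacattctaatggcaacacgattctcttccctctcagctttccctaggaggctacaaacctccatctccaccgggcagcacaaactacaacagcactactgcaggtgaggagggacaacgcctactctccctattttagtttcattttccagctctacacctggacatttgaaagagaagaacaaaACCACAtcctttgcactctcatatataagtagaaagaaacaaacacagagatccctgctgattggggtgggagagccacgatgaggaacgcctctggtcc
Gzmb: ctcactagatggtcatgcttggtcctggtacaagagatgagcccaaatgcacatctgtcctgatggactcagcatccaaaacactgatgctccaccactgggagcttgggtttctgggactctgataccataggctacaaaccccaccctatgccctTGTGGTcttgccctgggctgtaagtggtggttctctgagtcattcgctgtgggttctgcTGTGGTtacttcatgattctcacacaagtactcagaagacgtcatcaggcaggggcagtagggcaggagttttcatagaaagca
Nkg7: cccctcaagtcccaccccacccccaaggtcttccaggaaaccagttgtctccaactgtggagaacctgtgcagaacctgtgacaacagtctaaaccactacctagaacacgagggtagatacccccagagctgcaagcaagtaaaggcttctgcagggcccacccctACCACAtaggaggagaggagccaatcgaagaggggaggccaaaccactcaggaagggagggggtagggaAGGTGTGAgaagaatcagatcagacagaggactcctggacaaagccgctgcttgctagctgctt
Ncr1: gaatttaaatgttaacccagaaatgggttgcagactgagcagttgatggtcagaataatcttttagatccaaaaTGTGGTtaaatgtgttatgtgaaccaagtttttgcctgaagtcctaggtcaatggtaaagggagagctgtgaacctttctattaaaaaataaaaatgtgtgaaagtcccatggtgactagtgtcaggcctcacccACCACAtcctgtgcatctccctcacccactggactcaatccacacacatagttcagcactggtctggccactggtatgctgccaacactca

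The deposited values are FPKM, a fragment count scaled by transcript length and by the mapped fragments of the library, and can be compared between genes as levels per length. Haemoglobin genes took 92.6% to 96.4% of the summed FPKM, so all other genes shared the rest. Differences were taken after a log2(FPKM + 0.1) transform, so the change of low genes is understated. Genes whose mean FPKM reached 0.5, 5339 in number, were tested, and their median difference (Nar minus Ctrl) was -1.07. Scaling each library by its median ratio to the geometric means of the genes (median-of-ratios scaling) brought that median to -0.00. Members are therefore also given relative to the median of -1.07. The number of reads behind the values is unknown. A p-value from an exact permutation test of 2 libraries against 2 cannot go below 0.33, so single genes were tested with limma across all 5339 genes.

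All 10 members had a lower mean FPKM with Nar than in Ctrl, though Nkg7 (0.19) and Eomes (0.31) had higher log2 values with Nar after median-of-ratios scaling, and Gzma and Gzmb passed the test. Summed over the 10, the FPKM values were 26.2 in Ctrl 1 and 24.0 in Ctrl 3, against 12.0 in Nar 1 and 5.89 in Nar 3. Of the RNA outside haemoglobin, the members made up 0.0351% and 0.0219% in Ctrl and 0.0182% and 0.0103% in Nar. On these measures both Nar libraries lay below both Ctrl libraries, but the sums after median-of-ratios scaling, 18.7 and 14.9 in Ctrl and 16.2 and 9.84 in Nar, overlapped. For 7 of the 10 members both Nar libraries lay below both Ctrl libraries, where 52.7% of all 16382 genes above 0 in a library and 78.3% of the tested genes did so. After median-of-ratios scaling this held for 2 members, Gzma and Gzmb, next to 20.8% of the tested genes. Once haemoglobin genes were taken out and each library was rescaled, it held for 3 members, next to 54.1% of the tested genes. With TPM, where each library is scaled to the same sum, it held for all 10, next to 79.5%.

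The mean FPKM of 8 members reached 0.5, and these were tested. The 4 receptors reached it only through the Ctrl libraries, since their Nar means were under 0.5. By the rule of a limma adjusted p-value below 0.05, 2 of the 8 were lower with Nar, while 39.6% of all tested genes were lower by the same rule. The share of members is therefore no higher than the background. Of the members 0 were called higher, next to 0.187% of the tested genes. Over all 10 members the median log2 fold change was -1.17, next to a median of -1.07 over all tested genes and of -0.57 over all 16382 genes above 0 in a library, most of which were too low to be tested. With median-of-ratios scaling 0 of the 8 passed in limma, next to 0.599% of the tested genes called lower, and 1 of the 8 had an unadjusted p-value below 0.05, next to 14.9% of the tested genes. With haemoglobin genes removed 0 of the 8 passed and 2 had an unadjusted p-value below 0.05, next to 5.01% and 21.5% of the tested genes. Without the filter 0 of 10 passed and 3 had an unadjusted p-value below 0.05, next to 0.00% and 30.4% of all genes. At a mean of at least 5 FPKM only Gzma remained to be tested and passed, next to 10.7%. With TPM 3 of the 8 passed and 6 had an unadjusted p-value below 0.05, next to 42.2% and 58.9% of the tested genes. Without Ctrl 1, Ctrl 3 or Nar 3 limma called 0 members, next to 0.00%, 0.00% and 3.99% of the tested genes. Before adjustment, 2, 4 and 1 of the 8 had p-values below 0.05 in these fits, next to 50.2%, 40.0% and 27.0% of the tested genes. Without Nar 1 it called 1, Gzmb, next to 4.76%, and 7 of the 8 had an unadjusted p-value below 0.05, next to 39.0%.

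**Figure D1:**
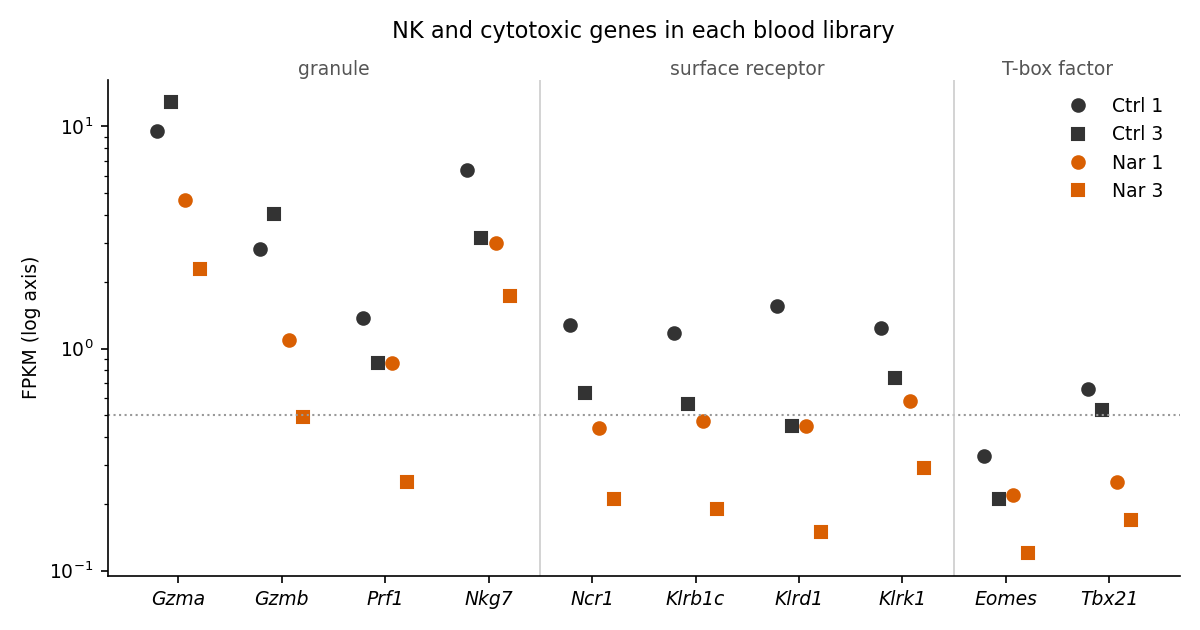
FPKM (log axis) of the 10 members in each library, grouped by role. Black points are Ctrl and orange points Nar, circles are libraries numbered 1 and squares libraries numbered 3, and the dotted line is the mean of 0.5 FPKM needed for testing. Gzma has the highest level, from 2.29 to 12.8 FPKM, and Nar 3 is the lowest library for every member.

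In Ctrl, Gzma had the highest level of the members. Its 9.48 and 12.8 FPKM lay above Nkg7 (6.34 and 3.15) without overlap, and Nkg7 overlapped with Gzmb (2.80 and 4.04). Prf1, Klrd1, Klrk1, Ncr1 and Klrb1c followed between 0.45 and 1.56 FPKM, and no neighbours among these 5 differed beyond their spread. Tbx21 (0.66 and 0.53) overlapped with Klrb1c (1.18 and 0.56), and Eomes (0.33 and 0.21) was below Tbx21. With Nar, Gzma and Nkg7 were again the highest, but their values overlapped. In every library Prf1 and the receptors were below the median of the tested genes, which was 1.85 and 1.97 FPKM in Ctrl and 0.89 and 0.74 in Nar.

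Both granzyme genes fell. Gzmb (NCBI Gene 14939) had 2.80 FPKM in Ctrl 1 and 4.04 in Ctrl 3, against 1.09 in Nar 1 and 0.49 in Nar 3. The groups did not overlap, and the lower Ctrl library was above the higher Nar library by more than the gap inside either group on the log2 scale. Its log2 fold change was -2.05 (standard error 0.440, limma adjusted p = 0.0154), a 4.14-fold lower level, which is -0.98 relative to the median of all tested genes. Gzma (NCBI Gene 14938) had 9.48 FPKM in Ctrl 1 and 12.8 in Ctrl 3, against 4.68 in Nar 1 and 2.29 in Nar 3, again without overlap. Its log2 fold change was -1.72 (standard error 0.510, limma adjusted p = 0.0322), or -0.65 relative to that median. After median-of-ratios scaling the Nar values remained below the Ctrl values for both genes, with Gzmb at 1.99 and 2.52 in Ctrl and 1.47 and 0.819 in Nar, and Gzma at 6.74 and 7.97 in Ctrl and 6.32 and 3.83 in Nar. The log2 fold changes were then -0.96 and -0.57, and neither passed (limma adjusted p = 0.265 and 0.683).

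The other granule genes did not pass. Prf1, the pore-forming protein, had 1.37 FPKM in Ctrl 1 and 0.86 in Ctrl 3, against 0.86 in Nar 1 and 0.25 in Nar 3. Ctrl 3 and Nar 1 were tied, so the groups met, and the log2 fold change was -1.04 (95% interval -2.18 to 0.11, limma adjusted p = 0.113). Nkg7 had 6.34 FPKM in Ctrl 1 and 3.15 in Ctrl 3, against 2.97 in Nar 1 and 1.73 in Nar 3. Here the groups did not overlap, but Ctrl 3 and Nar 1 were close, and the log2 fold change was -0.95 (95% interval -2.07 to 0.17, limma adjusted p = 0.130). Relative to the median of all tested genes, Prf1 was at 0.04 and Nkg7 at 0.12, and the direction of Nkg7 turned to 0.19 after median-of-ratios scaling.

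The receptors had nearly equal levels, and 0 of the 4 passed in limma. That depended on the model. With a block for the library number, Ncr1, Klrb1c and Klrd1 passed (limma adjusted p = 0.0311, 0.0449 and 0.0289) and Gzma did not (0.0653), next to 33.8% of the tested genes called lower. With TPM Ncr1 alone of the 4 passed (limma adjusted p = 0.0499), next to 42.2%. Before adjustment, 3 of the 4 had p-values below 0.05, next to 56.9% of all tested genes. Ncr1, which encodes NKp46, had 1.28 FPKM in Ctrl 1 and 0.63 in Ctrl 3, against 0.44 in Nar 1 and 0.21 in Nar 3 (log2 fold change -1.29, standard error 0.477, limma adjusted p = 0.0556). Klrb1c had 1.18, 0.56, 0.47 and 0.19 FPKM in the same order (log2 fold change -1.18, limma adjusted p = 0.0814). In both genes the groups did not overlap, but Ctrl 3 was closer to Nar 1 than to Ctrl 1, and Ncr1 was 0.936 to 1.13 times Klrb1c in every library. Klrk1, the NKG2D gene, had 1.24, 0.74, 0.58 and 0.29 FPKM (log2 fold change -1.04, limma adjusted p = 0.0761). Klrd1, the CD94 gene, was the most variable receptor, at 1.56 FPKM in Ctrl 1 and 0.45 in Ctrl 3, against 0.45 in Nar 1 and 0.15 in Nar 3 (log2 fold change -1.37, limma adjusted p = 0.0890). Its Ctrl libraries differed by 1.59 on the log2 scale, more than for any other member, and Ctrl 3 was tied with Nar 1. Relative to the median of all tested genes, the receptors were at -0.22 (Ncr1), -0.10 (Klrb1c), -0.29 (Klrd1) and 0.03 (Klrk1). Klrk1 and Prf1 were at -0.05 and -0.03 after median-of-ratios scaling.

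The T-box factors were too low to be tested. Tbx21 had 0.66 FPKM in Ctrl 1 and 0.53 in Ctrl 3, against 0.25 in Nar 1 and 0.17 in Nar 3, without overlap and with a log2 fold change of -1.17. Eomes had 0.33, 0.21, 0.22 and 0.12 FPKM in the same order. Ctrl 3 and Nar 1 crossed here, and the log2 fold change was -0.46, with the sign turning to 0.31 after median-of-ratios scaling. Tbx21 was 2.00 and 2.52 times Eomes in Ctrl and 1.14 and 1.42 times Eomes in Nar, so the ratio of these factors was lower in both Nar libraries, at values where rounding to 0.01 FPKM is a visible part of the level. Relative to the median of all tested genes, Tbx21 was at -0.10 and Eomes at 0.61.

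**Figure D2:**
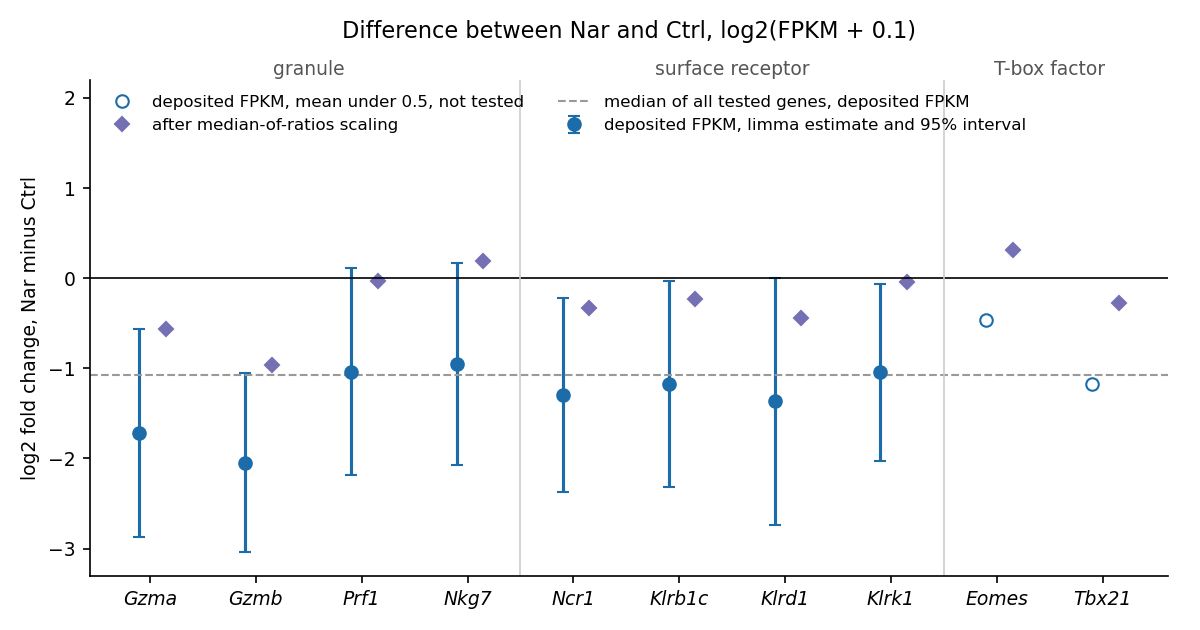
Log2 fold change (Nar minus Ctrl) of each member on log2(FPKM + 0.1). Filled circles with bars are limma estimates with 95% intervals, open circles the members with a mean under 0.5 FPKM, diamonds the values after median-of-ratios scaling, and the dashed line the median of -1.07 over all tested genes. Gzmb (-2.05) and Gzma (-1.72) are lowest, and after scaling the members lie between -0.96 and 0.31.

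The comparison of granule genes with surface receptors was made inside each library, where a scaling factor of the library cancels apart from the pseudocount. The mean log2(FPKM + 0.1) of the 4 granule genes minus that of the 4 receptors was 1.52 in Ctrl 1 and 2.39 in Ctrl 3, against 1.80 in Nar 1 and 1.67 in Nar 3. Granule genes were above receptors in every library, and both Nar values lay between the Ctrl values. The difference between the group means was -0.22, less than the spread between replicates (pooled SD 0.440). Granule genes and receptors therefore could not be separated by their response, with median log2 fold changes of -1.38 and -1.24. Without Ctrl 3 the difference of the group means turned to 0.22, and it was -0.48 with a pseudocount of 1 and -0.08 with a pseudocount of 0.01.

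Among these differences inside a library, the gap between the Ctrl libraries was widest when the granzymes were set against the receptors. With only Gzma and Gzmb in the granule group, the difference to the receptors was 1.90 in Ctrl 1 and 3.41 in Ctrl 3, against 2.03 in Nar 1 and 1.96 in Nar 3, so Ctrl 3 stood apart and the other 3 libraries lay between 1.90 and 2.03. With only Prf1 and Nkg7, it was 1.13, 1.36, 1.56 and 1.39, a narrow range in which both Nar values were the higher ones. These splits of the granule group were made after the values were seen. Between the Ctrl libraries, Gzma and Gzmb were higher in Ctrl 3 (Ctrl 1 minus Ctrl 3, -0.43 and -0.51 on the log2 scale), while the other 8 members were higher in Ctrl 1, by 0.27 (Tbx21) to 1.59 (Klrd1), as were 42.9% of the tested genes. Between the Nar libraries all 10 members were higher in Nar 1, as were 69.1% of the tested genes.

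Ratios of FPKM between members also varied with Ctrl 3. Gzma was 7.41 times Ncr1 in Ctrl 1 and 20.3 times in Ctrl 3, against 10.6 times in Nar 1 and 10.9 times in Nar 3, so the Nar values lay inside the Ctrl range. Gzma was 3.39 and 3.17 times Gzmb in Ctrl and 4.29 and 4.67 times Gzmb in Nar, and Nkg7 was 4.95 and 5.00 times Ncr1 in Ctrl and 6.75 and 8.24 times Ncr1 in Nar. For these last pairs the groups did not overlap and the gap between groups was larger than the gap inside Ctrl. They were picked after the values were seen and were not tested.

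**Figure D3:**
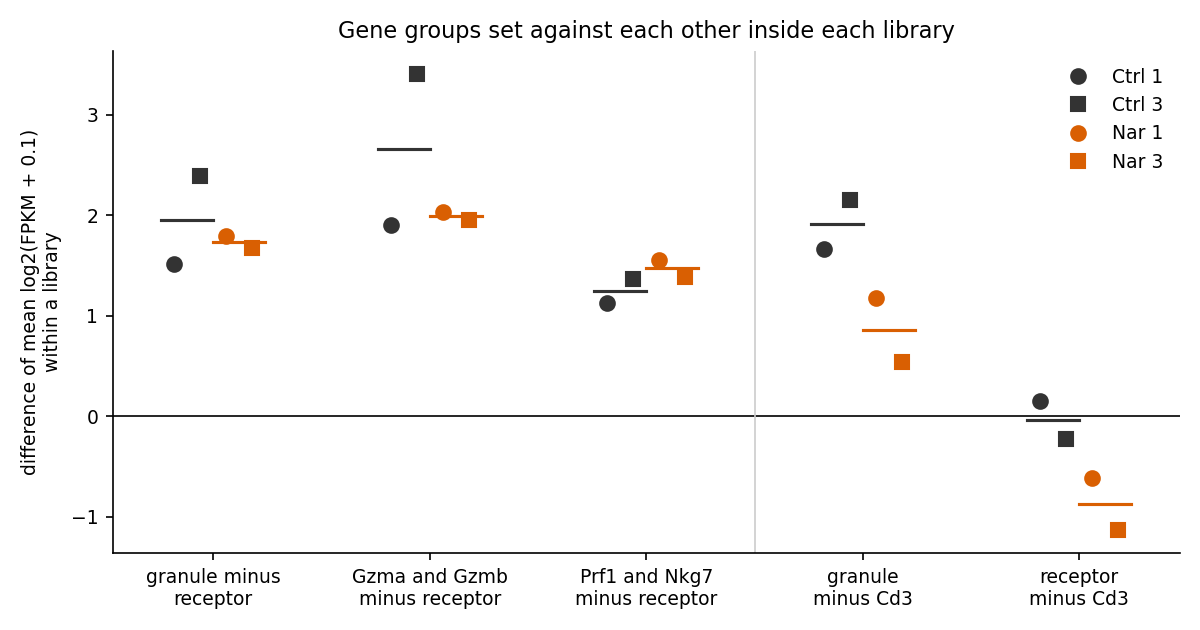
Differences of mean log2(FPKM + 0.1) between gene groups inside each library, with short lines for the group means. On the left, granule genes, the granzymes alone, or Prf1 and Nkg7 are set against the 4 receptors, where the Nar values of granule minus receptor (1.80 and 1.67) lie between the Ctrl values (1.52 and 2.39). On the right, granule genes and receptors are set against Cd3d, Cd3e and Cd3g, where both Nar values are below both Ctrl values.

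Activated or memory CD8 T cells share most of the members with NK cells, and the CD3 genes mark all T cells but are absent from NK cells. Cd3e had 1.06 FPKM in Ctrl 1 and 0.49 in Ctrl 3, against 0.79 in Nar 1 and 0.75 in Nar 3, with a log2 fold change of 0.07 (limma adjusted p = 0.883). Cd3d had 0.80, 0.91, 0.59 and 0.59 FPKM, and Cd3g 1.85, 0.78, 1.06 and 0.42. The groups overlapped for Cd3e and Cd3g, and the CD3 genes were thus present at levels near those of the NK receptors. Of the coreceptors, Cd8b1 had 1.32, 1.43, 0.86 and 0.62 FPKM, Cd8a 0.54, 0.31, 0.47 and 0.12, and Cd4 0.95, 0.49, 0.51 and 0.45. Of 11 T cell markers 8 could be tested and 0 passed in limma, next to 39.6% of all tested genes called lower. Before adjustment, Lck and Cd8b1 (2 of 8) had p-values below 0.05, next to 56.9% of all tested genes. The median log2 fold change of the 8 was -0.74, or 0.34 above the median of all tested genes. Over all 11 it was -0.55, next to -0.57 over all genes above 0 in a library. Cd6, Cd28 and Cd4 had Nar means under 0.5 FPKM and so were tested only through their Ctrl values.

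Set against the CD3 genes of the same library, most members were lower with Nar. The mean of the receptors minus that of Cd3d, Cd3e and Cd3g was 0.15 in Ctrl 1 and -0.23 in Ctrl 3, against -0.62 in Nar 1 and -1.14 in Nar 3 on the log2 scale. The mean of the granule genes minus that of the CD3 genes was 1.67, 2.16, 1.18 and 0.53. In both cases the Nar values were below the Ctrl values, with differences of group means of -0.84 and -1.05. Member by member, 9 of the 10 were lower relative to CD3 in both Nar libraries than in both Ctrl libraries, with Eomes as the exception, where 51.2% of all tested genes and 29.6% of all genes above 0 were so. The count was 9 or 10 with another pseudocount or another scaling, where 49.6% to 54.7% of the tested genes were so. A scaling factor of the library cancels here apart from the pseudocount. Leaving out a library can only keep or raise the count, and the share of tested genes then rose to between 52.8% and 89.9%. The steady count across scalings and left-out libraries therefore says little about the members. With all 11 T cell markers in place of the CD3 genes the count was 6, where 46.1% of the tested genes were so. This comparison was chosen after the values were seen, and the difference between NK and T cell genes was not tested.

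The wider set of genes around cytotoxic lymphocytes holds 81 genes in 10 lists, and all 81 had values above 0 in a library. Of these, 51 could be tested, and 26 were lower and 0 higher in limma, next to the 39.6% of all tested genes that were lower. Their median log2 fold change was -1.34, or -0.27 relative to the median of all tested genes. Of the 51, 17 had a Nar mean under 0.5 FPKM and so were tested only through their Ctrl values. Of these, 12 are among the 26 called lower (Ctsw, Rab27a, Lyst, Klra4, Klra7, Klra8, Cd244a, Il18r1, Ccl3, Ccl4, Nfil3 and Runx3), so the counts of called genes in the lists support nothing about the lists. Of the 51, Nfil3 alone passed after median-of-ratios scaling. From each list the 3 tested genes with the highest mean FPKM, and all other granzymes, are named by a fixed rule, and the other genes named were chosen after their values were seen. Many of these genes are also used by neutrophils, monocytes or platelets, and the share of each cell type in their values cannot be told apart in bulk blood.

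Among granule support genes, all 6 were tested and 3 passed, next to 39.6% of all tested genes called lower. Ctsc, the cathepsin that activates granzymes, had 3.87 and 1.91 FPKM in Ctrl and 1.02 and 0.37 in Nar (log2 fold change -1.96, limma adjusted p = 0.0234). Ctsw, a cathepsin of NK and CD8 T cells, had 1.23 and 1.00 FPKM in Ctrl and 0.42 and 0.31 in Nar (log2 fold change -1.39, limma adjusted p = 0.0253). Serpinb9, an inhibitor of granzyme B, also passed, with a log2 fold change of -1.49. The genes with the highest levels in this list did not pass: Srgn, the proteoglycan core of granules, at 205 and 518 FPKM in Ctrl and 141 and 118 in Nar, the lysosomal protein gene Lamp1 (log2 fold change -1.40) and the chaperone gene Calr (-0.67).

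Of the 6 genes for granule exocytosis, 5 were tested and 3 passed (Rab27a, Lyst and Stxbp2), next to 39.6% of all tested genes. Rab27a, which docks granules at the membrane, had 2.58 and 1.63 FPKM in Ctrl and 0.38 and 0.58 in Nar (log2 fold change -1.91, limma adjusted p = 0.0122). Stxbp2 had a log2 fold change of -1.35 (limma adjusted p = 0.0406), while its partner Stx11 (-0.99) and the priming factor gene Unc13d (-1.12) did not pass. The other granzymes were close to the lower limit of the values: Gzmk had 0.62 and 0.17 FPKM in Ctrl and 0.33 and 0.39 in Nar, and Gzmc and Gzmm were listed at 0 in 3 libraries each and at no more than 0.05 FPKM in the fourth.

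Among 16 further receptors, 8 were tested and 5 were lower, next to 39.6% of all tested genes. The 5 were Fcgr3, Cd244a and the Ly49 genes Klra4, Klra7 and Klra8. Fcgr3, the Fc receptor through which NK cells see antibody and which neutrophils and monocytes also carry, had 11.3 and 7.28 FPKM in Ctrl and 1.27 and 0.98 in Nar (log2 fold change -2.91, limma adjusted p = 0.00510). Cd244a had 2.14 and 0.65 FPKM in Ctrl and 0.26 and 0.21 in Nar (log2 fold change -1.96, limma adjusted p = 0.0260). The Ly49 receptor genes had log2 fold changes of -1.59 (Klra4), -1.50 (Klra7) and -1.24 (Klra8), but they belong to a family of near-identical genes between which reads can be split. Klrc1, the NKG2A partner of CD94, did not pass (-0.61), nor did Cd226 (-1.07) or Cd2 (-0.10). Klre1 was not tested but was listed at 0.93 and 0.42 FPKM in Ctrl and at 0.10 and 0 in Nar.

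The adaptors carry the signals of these receptors. Of 7 tested, Tyrobp, Fcer1g and Vav1 passed, next to 39.6% of all tested genes called lower. Tyrobp, which encodes DAP12, had 46.4 and 36.1 FPKM in Ctrl and 6.93 and 6.46 in Nar (log2 fold change -2.60, limma adjusted p = 0.0102), and Fcer1g had 102 and 183 FPKM in Ctrl and 50.1 and 34.2 in Nar (log2 fold change -1.72, limma adjusted p = 0.0358). Both are shared with myeloid cells. Hcst, the DAP10 partner of NKG2D, was at -1.45 (limma adjusted p = 0.0543), Cd247 and Zap70, shared with T cells, at -0.89 and -0.33, and the kinase gene Syk at -1.19, and none of these passed.

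For the ligands of the receptors, 3 of 8 could be tested and 0 passed in limma, next to 39.6% of all tested genes. Before adjustment, H2-T23 and Clec2i (2 of 3) had p-values below 0.05, next to 56.9% of all tested genes, and Clec2i had a Nar mean under 0.5 FPKM. H2-T23, which encodes the Qa-1 molecule read by CD94 with NKG2A, had 16.3 and 32.3 FPKM in Ctrl and 10.1 and 7.92 in Nar (log2 fold change -1.35, limma adjusted p = 0.0688). Clec2d and Clec2i, lectins read by the Klrb1 family, had log2 fold changes of -0.77 and -0.83. The NKG2D ligand genes Raet1e, Ulbp1 and H60b were at or under 0.22 FPKM in every library.

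Of 8 cytokine receptor genes, 5 were tested and Il2rb, Il18r1 and Il18rap passed, next to 39.6% of all tested genes called lower. Il2rb, the chain that NK cells use for IL-15, had 2.86 and 2.32 FPKM in Ctrl and 1.32 and 1.09 in Nar (log2 fold change -1.04, limma adjusted p = 0.0496), 0.03 relative to the median of all tested genes. Il18rap had 4.76 and 4.09 FPKM in Ctrl and 0.32 and 0.79 in Nar (log2 fold change -2.88, limma adjusted p = 0.00518). The shared chain gene Il2rg did not pass (-1.10).

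Among 7 secreted effectors, 3 were tested and 2 passed, next to 39.6% of all tested genes called lower. The chemokine genes Ccl3 and Ccl4 passed, with log2 fold changes of -2.54 and -2.08 (limma adjusted p = 0.0122 and 0.0150). Ccl3 had 4.62 and 1.42 FPKM in Ctrl and 0.33 and 0.39 in Nar. Ccl5, which NK cells, memory CD8 T cells and platelets hold at high levels, had 22.96 and 25.39 FPKM in Ctrl and 13.5 and 9.64 in Nar, a log2 fold change of -1.08 that did not pass (limma adjusted p = 0.0970). Ifng, the interferon of NK cells, was under the limit for testing at 0.25 and 0.62 FPKM in Ctrl and 0.04 and 0.07 in Nar.

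Of 10 further transcription factors, 6 were tested and Nfil3, Id2, Zeb2 and Runx3 passed, next to 39.6% of all tested genes called lower. Nfil3, needed for NK cell development and also used in other leukocytes, had 4.15 and 4.39 FPKM in Ctrl and 0.26 and 0.40 in Nar (log2 fold change -3.36, limma adjusted p = 0.00246). It was the only gene of the wider lists that also passed after median-of-ratios scaling, at -2.32 (limma adjusted p = 0.0335). Id2 and Zeb2 were at -1.32 and -1.35, Runx3 at -1.15, and Ets1 at -0.37, which did not pass. Of the 10 egress and homing genes, 8 were tested and 3 passed, next to the same 39.6%. Among them the integrin genes Itgam, carried by myeloid and NK cells, and Itgal, carried by most leukocytes, had log2 fold changes of -2.88 and -1.52 (limma adjusted p = 0.00476 and 0.0451). S1pr5, which lets NK cells leave the marrow, was listed at 1.11 FPKM in Ctrl 1 and 0.10 in Ctrl 3, against 0.22 in Nar 1 and 0.24 in Nar 3.

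**Figure D4:**
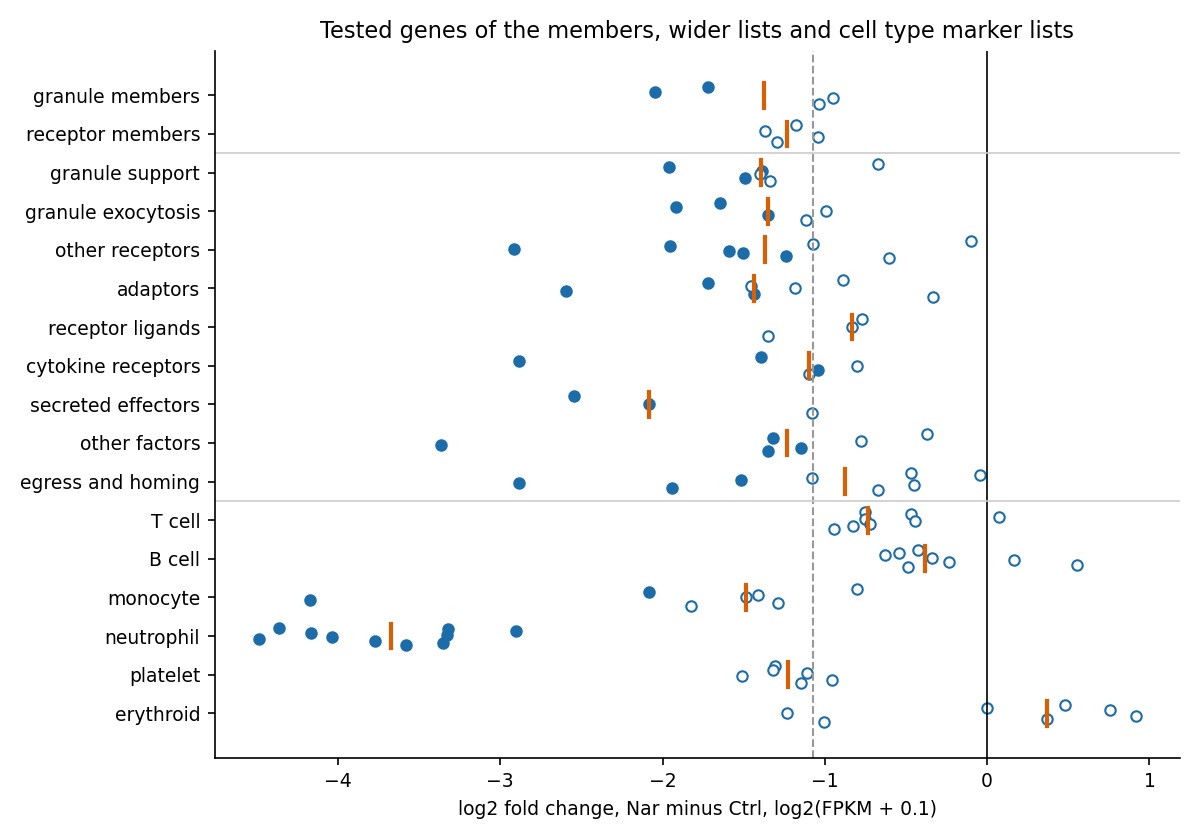
Log2 fold change (Nar minus Ctrl) of each tested gene in the member groups, in the wider lists and in marker lists of blood cell types. Filled points passed limma (adjusted p-value under 0.05), open points did not, orange bars are list medians and the dashed line is the median of -1.07 over all tested genes. Neutrophil markers lie lowest, with a median of -3.67, Gzmb (-2.05) and Gzma (-1.72) lie to the left of the dashed line, and the medians of the B cell (-0.38) and T cell markers (-0.74) lie to its right.

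Markers of other blood cells are given beside the members, and the part of these cells in the values of the members was not tested. The counts below stand next to 39.6% of all tested genes called lower in limma. Before adjustment, 56.9% of all tested genes had p-values below 0.05. All 10 neutrophil markers passed, with a median log2 fold change of -3.67 and a summed level of 1352.29 to 1622.6 FPKM in Ctrl and 98.2 to 155 in Nar, S100a9 being the highest. Of 7 tested monocyte markers 2 passed (median -1.49), and the list summed to 76.0 and 85.2 FPKM in Ctrl and 28.0 and 10.1 in Nar, with F13a1 highest. Of 8 B cell markers 0 passed in limma and 0 had an unadjusted p-value under 0.05, and their median was -0.38, with Cd79a at 14.31 and 13.01 FPKM in Ctrl and 10.6 and 10.9 in Nar. The 6 platelet markers, led by Pf4, had a median of -1.23 and summed to 691 FPKM in Ctrl 1 and 2326.05 in Ctrl 3, against 614 in Nar 1 and 452 in Nar 3, so Ctrl 3 stood apart, and 0 of the 6 passed in limma (1 before adjustment, Pf4). The 7 tested erythroid markers, with Alas2 highest, had a median of 0.37. Markers of basophils and mast cells, plasmacytoid dendritic cells, and type 1 innate lymphoid or liver NK cells were low, with sums of 1.78 to 5.76, 4.32 to 8.26 and 2.03 to 5.07 FPKM. Their highest genes were Gata2, Ly6d and Tcf7, of which none passed, and Bst2 was the single gene of these lists that did (log2 fold change -1.55, limma adjusted p = 0.0211). Tcf7 and Il7r of the last list are also used by T cells, and its Cxcr6 and Itga1 were at or under 0.34 FPKM. No marker of any list was at 0 in all libraries.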

How the data were processed

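Blood RNA was sequenced from 2 Ctrl and 2 Nar libraries. The authors deposited 1 table of FPKM values for 23136 genes, of which 5313 are blank and 17823 have values. The study's methods name bowtie-2 and DEGseq, while the submitters' processing notes name TopHat2, Cufflinks and GRCm38, and which made the table was not settled. Read depth is unknown. At the best of many trial step sizes, 28.6% to 34.0% of low values lay within 0.1 of a whole read. A single step size would give 20% without steps, so these shares cannot decide whether there are steps. DEGseq needs counts, so limma 3.58.1 (R 4.3.3; lmFit, eBayes with trend, no block) was run on log2(FPKM + 0.1) over 5339 genes (mean FPKM not under 0.5), with Benjamini-Hochberg adjustment and a threshold of 0.05, after tests on simulated data. Figures were drawn with Python 3.11.15 and matplotlib 3.10.9. All 10 members are named. From each wider list the 3 tested genes with the highest mean FPKM are named, plus the other granzymes, Cd3d, Cd3e, Cd3g, Cd8a, Cd8b1 and Cd4, and the highest gene of each further marker list. One gene that this rule names is not reported here. The members and lists were chosen with earlier results of these data known. Alternatives were the pseudocount, the filter, TPM, removal of haemoglobin genes, median-of-ratios scaling, limma without trend, a replicate block and leaving out each library.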

Additional observations from a re-analysis of the deposited data

How the results depend on the processing

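The filter, the scaling and single libraries changed counts of calls. The count of members called lower was 2, next to 39.6% of the tested genes. It was 0 without the filter, with haemoglobin genes removed and after median-of-ratios scaling. The shares over all tested genes were then 0.00%, 5.01% and 0.599%. At a mean FPKM of at least 5 the count was 1 (of 1 tested), next to 10.7%. With TPM it was 3, next to 42.2%. The wider genes called lower, 26 of 51 tested, were 0 of 81 without the filter and 4 of 14 at a mean of at least 5. They were 6 of 51 with haemoglobin genes removed and 1 of 51 after median-of-ratios scaling. The shares over all tested genes, given above for the same settings, fell as well. Cell type markers called lower, 13, were 0 without the filter, 6 after median-of-ratios scaling and 0 to 9 with a library left out, and 1 was called higher (0 before) with haemoglobin genes removed. Without either Ctrl library 0 of all genes were called, and the lone library of that group is assumed to vary like the others. The median log2 fold change of the members, -1.17, was -0.51 with a pseudocount of 1, -0.25 when scaled by median of ratios and -1.68 to -0.72 with a library left out. That of granule genes, -1.38, was -0.87 with haemoglobin genes removed, -0.30 after median-of-ratios scaling and -1.99 to -0.90 with a library left out, and that of receptors, -1.24, was -0.51 with a pseudocount of 1, -0.28 when scaled by median of ratios and -1.70 (without Ctrl 3) to -0.70 (without Ctrl 1) with a library left out. The granule minus receptor difference, -0.22, was -0.65 to 0.22 with a library left out, -0.48 and -0.08 with a pseudocount of 1 and of 0.01, -0.66 with Gzma and Gzmb alone and 0.23 with Prf1 and Nkg7 alone. Members with both Nar below both Ctrl, 7, were 3 with haemoglobin genes removed and 2 after median-of-ratios scaling. The shares of the tested genes were 54.1% and 20.8%. With TPM the count was 10, next to 79.5%. After median-of-ratios scaling Nkg7 (0.19) and Eomes (0.31) changed sign. The causes were not tested.

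The labels number the libraries 1 and 3 in both groups but do not say whether the numbers pair them. Deviations of same-numbered libraries had a correlation of -0.15 across the tested genes. Of the 10 members, 8 were higher in Ctrl 1 than in Ctrl 3, next to 42.9% of the tested genes. All 10 were higher in Nar 1 than in Nar 3, next to 69.1%. With only 2 pairs these values cannot decide whether the libraries are paired. With a replicate block limma called 4 members lower (Gzmb, Ncr1, Klrb1c and Klrd1, with Gzma at an adjusted p of 0.0653) and 19 wider genes, next to 33.8% of the tested genes. With the crossed block, added after the data were seen, 3 members, 36 wider genes, 1 T cell marker and 27 markers of all cell types were called lower and 1 marker higher, next to 60.1% of the tested genes called lower. Across the alternatives for single members, 14 values (all of Gzma or Gzmb) lost the call, 5 (of Ncr1, Klrb1c or Klrd1) gained it, 4 of Tbx21 moved by more than the replicate spread and 2 changed sign.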
